A study of Mus musculus with 4 samples.

Results

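Melanin is made and stored in melanosomes, organelles of pigment cells related to lysosomes, and the 10 genes described here encode the enzymes, structural proteins, transporters and receptors of that system: Tyr, Tyrp1, Dct, Pmel, Mlana, Slc45a2, Oca2, Gpr143, Mc1r and Gpnmb. Every probe set whose annotated symbol was one of these was taken, which gave 17 probe sets for the 10 genes, of 18193 genes on the array. Expression was measured in tumours grown in the dermis of nude mice, hosts that lack T cells, from iNRAS-475, a mouse melanoma line with NRAS under doxycycline control. All mice drank water with 2 mg/ml doxycycline while tumours grew for 6 weeks to 200 to 500 mm3. One tumour was kept on doxycycline, and the others were taken 24, 48 and 72 h after the drug was withdrawn, with 1 Affymetrix array for each. The NRAS allele, the promoter behind its inducer, the line's other alleles and the age of the mice are not given in the sources used here.

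In pigment cells the transcription factor MITF binds short motifs in the promoters of most of these genes and drives them, and in melanoma the pigment programme ranges from strong to absent. Tyrosinase (Tyr) carries out the first steps of melanin synthesis, and its relatives Tyrp1 and Dct act on later intermediates. Pmel forms the fibrils on which melanin is laid down, Mlana is a melanosome membrane protein needed for Pmel to mature, and Gpnmb is a relative of Pmel that is also made by macrophages. Slc45a2 and Oca2 set the pH inside the melanosome, Gpr143 is a receptor that controls melanosome size and number, and Mc1r is the surface receptor for melanocyte-stimulating hormone, which raises cAMP.

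With 1 array per time no difference has a replicate error or a p-value, and animal, tumour piece and time cannot be told apart. Precision is limited by the number of arrays. The arrays had median intensities between 33.3 and 34.0, within a range of 6.99 to 19970 over all probe sets. The brightest mouse Nras probe set read 163 on doxycycline and 256, 163 and 163 at 24, 48 and 72 h, and the labels do not say whether it detects the inducible NRAS. Dusp6, a phosphatase transcribed when ERK is active and named after its values were seen, read 1706 on doxycycline and 1338, 334 and 156 at those times. Sox10, a factor of neural crest and melanocytic cells, read 3771 on doxycycline and 3613, 4681 and 3844 at 24, 48 and 72 h. Of 7 markers of melanocytic tumour cells (Sox10, Mitf, S100b, Mlana, Pmel, Ednrb and Pax3) 6 passed the filter on low levels given further on, and Mlana, between 23.0 and 25.2 on the 4 arrays, did not. Most genes passed this filter, 13522 of all 18193.

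The promoters of the members are shown first, because the motif that MITF recognises stands in most of those available. RefSeq promoter sequences of build GRCm38.p6, 250 bases before to 50 after the start of the gene, were at hand for 6 members: Tyr, Tyrp1, Dct, Oca2, Mc1r and Gpnmb. The stretches below lie before the start site, run 5′ to 3′ along the gene's strand and carry in capitals CATGTG, the core of the element known as the M-box, or its reverse complement CACATG.
Tyr, chr7:87493513-87493553, minus strand: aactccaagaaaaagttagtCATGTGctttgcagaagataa
Tyrp1, chr4:80834147-80834192, plus strand: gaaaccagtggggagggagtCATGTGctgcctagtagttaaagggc
Dct, nearer site, chr14:118052371-118052416, minus strand: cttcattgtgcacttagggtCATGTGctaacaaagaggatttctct
Dct, farther site, chr14:118052453-118052496, minus strand: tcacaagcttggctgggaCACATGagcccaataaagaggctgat
Mc1r, chr8:123407000-123407056, plus strand: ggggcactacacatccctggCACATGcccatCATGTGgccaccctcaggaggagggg
Oca2, chr7:56239553-56239598, plus strand: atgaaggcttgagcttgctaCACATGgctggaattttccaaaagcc
The motif began 21 bases before the start in Tyr, 46 in Tyrp1, 150 and 232 in Dct, 62 and 51 in Mc1r and 186 in Oca2.

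CATGTG, read on both strands, was in 5 of the 6 members' windows, and in 14.2% of the 32851 promoter windows of the same length. The longer TCATGTG, which contains it, was in Tyr, Tyrp1, Dct and Mc1r and in 3.77% of all windows. AGTCATGTG, which contains both, was in Tyr and Tyrp1 and in 0.274% of all windows. CACGTG (in 7.15% of all windows) and the cAMP element TGACGTCA (1.79%) were in 0 of the 6. The AP-1 motif TGACTCA, found in 5.20% of all windows, was in Gpnmb, starting 8 bases after the first base of the gene. These are matches of letters, not measured binding.

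The melanin-synthesis enzymes were dim on every array. Tyr read 24.5, 24.4, 24.5 and 24.5 on doxycycline and at 24, 48 and 72 h, with exactly equal values on 3 arrays. The second Tyr probe set ranged from 21.6 to 23.8 and the third from 8.46 to 9.65. No time stood apart for tyrosinase, the enzyme without which no melanin is made. Tyrp1, whose product stabilises tyrosinase, read 17.9 on doxycycline and 14.4, 13.5 and 14.4 at 24, 48 and 72 h. Its second probe set read 15.5, 12.8, 11.3 and 13.0 along the same series, while the third read 11.7, 14.3, 14.5 and 14.1 and so was lowest where the others were highest. Dct, dopachrome tautomerase, read 34.7 on doxycycline and 25.8, 27.0 and 25.7 at 24, 48 and 72 h. The control array was the high one for Dct, and the 3 off arrays lay close together. On the scale log2(intensity + 32), used for all differences because it damps the noise of dim probe sets, Dct had differences, off minus on, of -0.21, -0.18 and -0.21 at the 3 times. Of the genes kept by the level filter described further on, 25.2%, 38.3% and 36.4% differed by more in size.

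**Figure D1:**
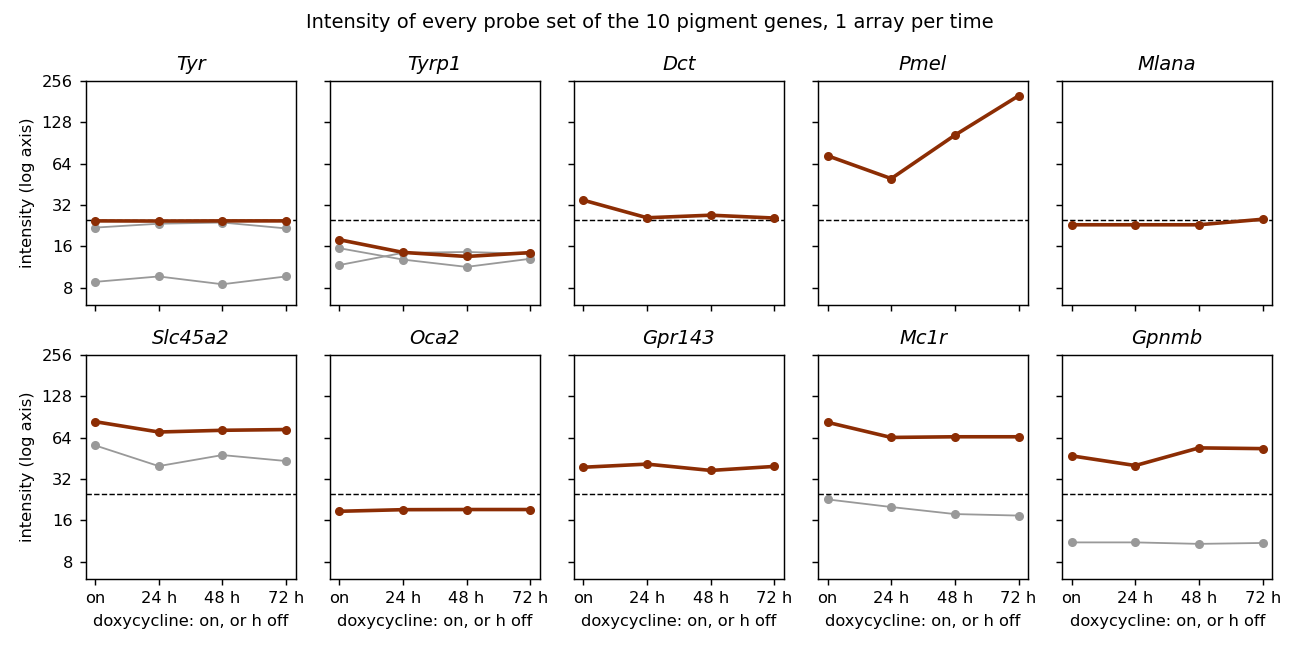
Intensity (vertical, log axis) of all 17 probe sets of the 10 genes on the control array and at 24, 48 and 72 h off doxycycline (horizontal). Each line is 1 probe set and each point 1 array; the brown line is the probe set used for the gene, grey lines are its other probe sets, and the dashed line is the level filter at 24.9. Pmel is the gene with a steep line, at 199.7 on the 72 h array, and the lines of Tyr, Mlana and Oca2 are nearly level.

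Pmel was the member that differed most between arrays. Its single probe set read 73.1 on doxycycline and 49.8, 103 and 199.7 at 24, 48 and 72 h. The 24 h array was thus the lowest and the 72 h array the highest. Against the tumour on doxycycline the differences were -0.36, 0.36 and 1.14 at the 3 times, the last a 2.20-fold higher value on this scale and a ratio of 2.73 between the intensities themselves. Of the genes kept by the level filter, 1.76% had a higher difference at 72 h. Between 2 off arrays, which leaves the shared control out, Pmel was higher at 72 h than at 24 h by 1.50, and 0.81% of kept genes had a higher difference. Both steps went up, by 0.73 at 48 h over 24 h and by 0.78 at 72 h over 48 h. Of kept genes 5.16% had this order of arrays (24 h, on, 48 h and 72 h from low to high).

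The other structural proteins gave no such course. Mlana read 23.0 on the control, 24 h and 48 h arrays, exactly equal, and 25.2 at 72 h. Gpnmb, the relative of Pmel, read 47.2 on doxycycline and 40.1, 53.9 and 53.3 at 24, 48 and 72 h. Like Pmel it was lowest at 24 h and above the control at 48 and 72 h, but with differences of only -0.13, 0.12 and 0.11. Its other probe set stayed between 10.8 and 11.05 on all arrays. At 72 h minus 24 h the difference of Gpnmb was 0.24, and 14.8% of kept genes had a higher one.

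Of the transporters, Slc45a2 was somewhat lower on each off array and Oca2 was level. Slc45a2 read 83.8 on doxycycline and 70.4, 72.5 and 73.4 at 24, 48 and 72 h, which are differences of -0.18, -0.15 and -0.14. Its other probe set had the same highest array, with 56.3 on doxycycline and 39.7, 47.8 and 43.3 off it. Both probe sets therefore had their high value in the control tumour. Oca2 read 18.6, 19.1, 19.2 and 19.2 over the series from on doxycycline to 72 h, with equal values at the last 2 times.

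The receptors split in the same way. Mc1r read 82.8 on doxycycline and 64.3, 65.0 and 65.0 at 24, 48 and 72 h, with differences of -0.25, -0.24 and -0.24. Its other probe set, at 22.7 on doxycycline and 20.0, 17.8 and 17.3 off it, was also highest on the control array. At the 3 times 17.8%, 27.9% and 31.9% of kept genes differed by more in size, and the median size over kept genes at 24 h was 0.10. Gpr143 read 39.0 on doxycycline and 41.1, 36.9 and 39.5 at 24, 48 and 72 h, with no difference above 0.05 in size from the control.

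A gene was represented by its brightest probe set, and genes whose mean over the 4 arrays reached the 40th percentile of all probe sets, an intensity of 24.9, were kept for counting. Of all 18193 genes 13522 were kept, and of the 10 members 6 were: Dct, Pmel, Slc45a2, Gpr143, Mc1r and Gpnmb. The other 4, Tyr, Tyrp1, Mlana and Oca2, lay below. In all, 10 of the 17 probe sets had a mean below that level, as 40% of all probe sets do by definition. Every member probe set apart from that of Pmel read under 90 on all arrays. Low values were common on the array: 24.4% of all probe sets had a mean of at least 100, and 16 of the 17 of the members had a lower one. Whether such dim signals are RNA of the gene or background cannot be told from this table, which holds no detection call.

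A difference of at least 1, or 2-fold, was counted as called. At 24 h 0 of the 6 kept members were 2-fold higher and 0 were 2-fold lower, where 0.266% and 0.0666% of the 13522 kept genes were. At 48 h 0 and 0 members were, against 0.754% and 1.04% of kept genes. At 72 h 1 member, Pmel, was 2-fold higher and 0 were lower, where 2.29% of kept genes were 2-fold higher and 1.63% lower. From 24 to 72 h it was again Pmel alone that was higher, with 1.97% of kept genes higher and 1.85% lower, and 0 members were lower. None of the 4 dimmer members reached a 2-fold difference at any time. With 32 added, a value under 32 cannot become 2-fold lower. For these 4 only a higher value could therefore be called. Dct and Gpr143 would have needed values under 6.99, the lowest on any array, to be 2-fold lower. Without a pseudocount 0 of the kept members were 2-fold lower in any of the 4 comparisons. With a pseudocount 4 times the 32 used here Pmel was no longer 2-fold higher, at 0.70 for 72 h off minus on and 0.88 for 72 h minus 24 h.

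Apart from Pmel, the greatest difference in size from the control among the members' brightest probe sets was that of Mc1r at 24 h, -0.25. The 5 other kept members had median differences of -0.18, -0.15 and -0.14 at 24, 48 and 72 h, with 4, 4 and 3 of the 5 below the control, where the median over kept genes was 0.00 at each time. Over all 10 members, Pmel included, the median differences at the 3 times were -0.12, -0.02 and 0.01, where the median of all 18193 genes was 0.00 at each time. At 24 h 7 members were below the control, 2 above it and 1 equal. At 48 h 5 were below, 3 above and 2 equal, and at 72 h 4 were below, 5 above and 1 equal. Of all 18193 genes 8246, 8363 and 8193 were below the control at the 3 times, and of the 13522 kept genes 5816, 6147 and 5904. These 3 comparisons share the control array. Of the 6 kept members Dct, Slc45a2 and Mc1r had their highest value there, and of all kept genes 23.9% did.

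**Figure D2:**
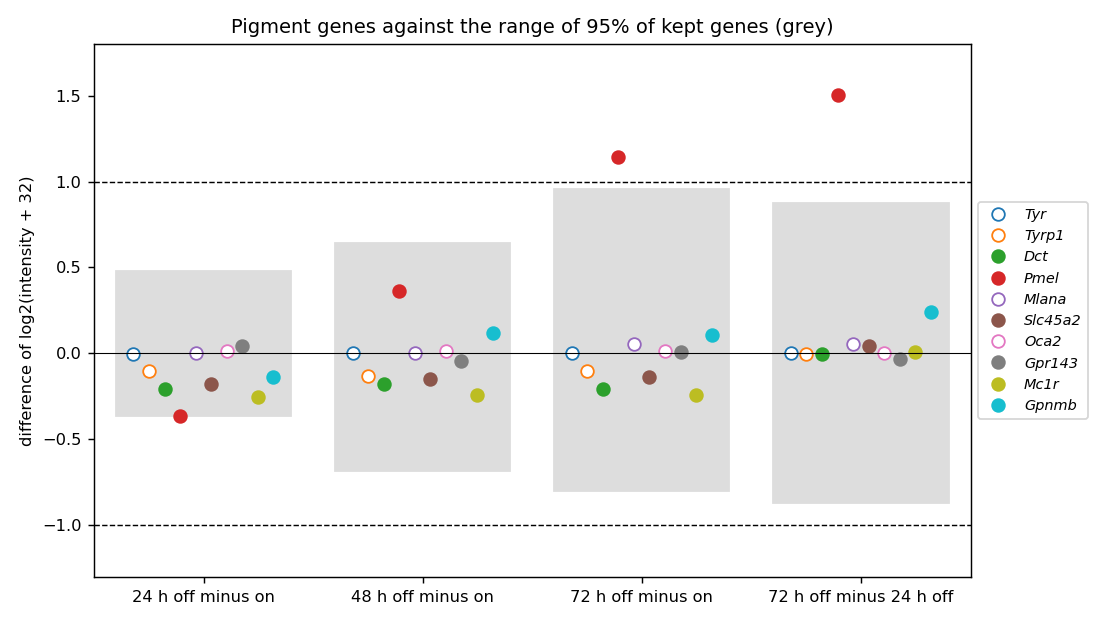
Differences of log2(intensity + 32) (vertical) for the 10 genes in 4 comparisons (horizontal), 1 point per gene, open where the gene was below the level filter. The grey boxes span 95% of kept genes and the dashed lines mark a 2-fold difference; Pmel, at 1.14 and 1.50, is outside the box in both comparisons of the 72 h array, and at 24 h its -0.36 lies at the lower edge.

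Genes with the profile nearest to that of Pmel over the 4 arrays were Srpx, Col15a1, Dact1, Sesn1 and Mmp2, with root mean square distances of 0.043 to 0.067 between profiles of log2(intensity + 32) centred on their means, where Pmel spanned 1.50. Col15a1 encodes a basement membrane collagen and Mmp2 a metalloprotease. Col15a1 read 759, 534, 900.2 and 1684 over the series from on doxycycline to 72 h, and Mmp2 2114, 1442, 2528 and 4522. Srpx, the nearest, read 48.6, 35.6, 72.6 and 152.7, Dact1 184.6, 151.0, 274.0 and 451.7, and Sesn1 111.2, 84.7, 140.6 and 296.1. For Mc1r, the kept member with the next widest range (0.25), the nearest were Foxe3, Mrm3, Saa4, Loxl4 and 4732490B19Rik. All 5 had exactly equal values on the 3 off arrays and a higher one on the control, a pattern found in 1.90% of kept genes, and Mc1r itself had equal values at 48 and 72 h. Exact ties between arrays occurred in 48.0% of all probe sets and in 6 of the 17 of the members. With 4 points many profiles are alike: 2587 kept genes lay within 0.1 of Mc1r, and 17 within 0.1 of Pmel.

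Markers of several other cell types were higher on the 72 h array, as Pmel was, and so were most kept markers of melanocytic tumour cells. The summed intensity of 8 fibroblast markers was 17389 on doxycycline and 17960, 35054 and 62439 at 24, 48 and 72 h. At 72 h 6 of these 8 genes were 2-fold higher than on doxycycline, and the others, Pdgfra and Thy1, were lower, at -0.57 and -0.25. The summed intensity of 5 measured adipocyte markers was 458, 232, 661 and 2253 over the same series, which like Pmel was lowest at 24 h. Here 3 of the 4 kept genes were 2-fold higher at 72 h, the hormone gene Adipoq among them, by 2.00. Skeletal muscle markers, 8 of 8 of them 2-fold higher at 72 h, summed to 301, 619, 287 and 5350 over the same series. Macrophage markers, 16 measured and 15 kept, summed to 7336, 12361, 9808 and 17649, with 6 of the 15 kept genes 2-fold higher at 72 h. Endothelial markers summed to 496, 459, 476 and 842, with 1 of 7 kept genes 2-fold higher. Schwann cell markers, which overlap with those of melanocytic cells, summed to 8086, 7564, 12330 and 12492, with Cdh19 2-fold higher and Egr2 2-fold lower at 72 h. Of the 6 kept markers of melanocytic tumour cells, Pmel among them, 6 were above the control at 48 h, with a median of 0.37. At 72 h 5 were above it and 1 below, with a median of 0.40. S100b, on both of these lists, differed by 0.94 and 0.62 at 48 and 72 h, and its other probe set by 0.89 and 0.61. Keratinocyte markers, 9 measured and 4 kept, stayed level at 300.1, 279, 296 and 299.8. None of these markers was listed at 0. In a bulk tumour piece a change in the number of cells of a type and a change in RNA per cell cannot be told apart. The part of these cells in the difference of Pmel was not tested. Gpnmb, which macrophages can make, differed by 0.11 at 72 h, where the macrophage list had a median of 0.86.

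**Figure D3:**
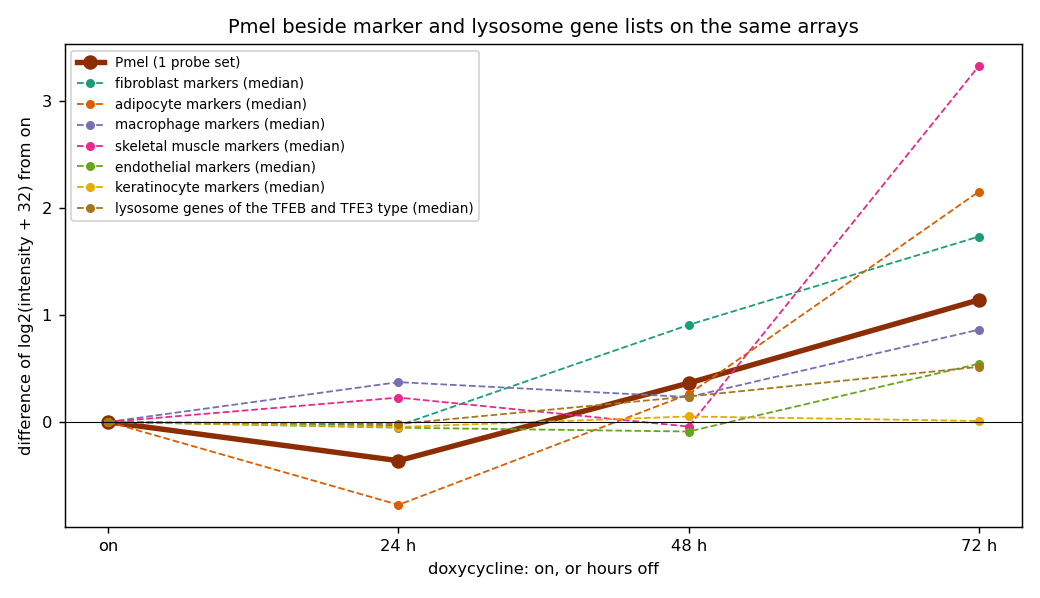
Difference of log2(intensity + 32) from the control (vertical) for Pmel and, as medians over kept genes, for lists of marker and lysosome genes, on the control array and at 24, 48 and 72 h off doxycycline (horizontal). At 72 h Pmel, at 1.14, lies between the macrophage (0.86) and fibroblast (1.73) medians, and the keratinocyte median is at 0.01. The lists of melanocytic tumour cells (median 0.40 at 72 h) and Schwann cells (0.29) are not drawn.

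Of the factors that act on pigment promoters, Mitf was higher at 48 and 72 h in its brightest probe set. That probe set read 50.3 on doxycycline and 56.5, 93.1 and 114.8 at 24, 48 and 72 h, with differences of 0.11, 0.60 and 0.84. The other Mitf probe set differed by 0.05, 0.08 and 0.05, so the 2 probe sets disagreed. Sox10 differed by -0.06, 0.31 and 0.03 at the 3 times, and its further probe sets gave -0.55 to -0.09 on the 72 h array. Of 8 kept factors 5 were above the control and 3 below it at 72 h, with a median of 0.06 and with 0 of them 2-fold different. Tfap2a, a neural crest factor, was at -0.45 at 72 h and Tfeb, a lysosome regulator, at -0.20. Lef1, a partner of beta-catenin, was above the control at 24 h and below it later, with differences of 0.70, -0.26 and -0.24, while its other probe set gave 0.09, -0.11 and -0.12.

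Genes of melanosome transport and biogenesis were mostly level, apart from the motor gene Myo5a. Myo5a, whose myosin carries melanosomes along actin, read 148 on doxycycline and 208, 461 and 582 at 24, 48 and 72 h. It was higher at each step, and its differences from the control were 0.42, 1.45 and 1.77. Its other probe sets were also higher, at 0.91 to 0.97 at 48 h and 0.73 to 0.87 at 72 h, but did not reach 2-fold. Among 19 kept genes of the list 11 were above the control and 8 below at 72 h, with a median of 0.05, and Myo5a was the 1 that was 2-fold different. Vps33a, Hps3 and Ap3d1, which sort proteins to lysosome-related organelles, differed by 0.53, 0.45 and 0.45 at 72 h, and their other probe sets by 0.01, -0.03 and 0.07.

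Of 5 kept ion and metal transporters of the melanosome, 4 read higher at 72 h than on doxycycline and 1 was equal, with a median of 0.23 and 0 of them 2-fold higher. Mfsd12, which brings cysteine into melanosomes, read 237 on doxycycline and 196, 296 and 377 at 24, 48 and 72 h. It had the order of arrays seen in Pmel, with smaller differences of -0.24, 0.29 and 0.61. The copper transporters Slc31a1 and Atp7a, which supply the metal that tyrosinase needs, differed by 0.43 and 0.23 at 72 h, and the channel Tpcn2 by 0.16. A second Slc31a1 probe set was at -0.02.

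In melanocortin and other pigment signalling 7 of 12 kept genes were above the control and 5 below it at 72 h, with a median of 0.06 and 0 of them 2-fold different. Mgrn1, a ubiquitin ligase with an effect on mouse coat colour, was lower on each off array, at 486 on doxycycline and 361, 315 and 320 at 24, 48 and 72 h. At 72 h its difference was -0.56, with its other probe sets between -0.68 and 0.00. Mrap2, an accessory protein of melanocortin receptors, differed by 0.57 at 72 h, Gnas, the G protein subunit that Mc1r acts through, by 0.49, and Atrn by 0.36. The 4 other Gnas probe sets were at -0.19 to 0.00 and the other Atrn probe set at 0.02, so these differences rest on 1 probe set each. Other genes linked to MITF had a median of -0.06 over 10 kept genes at 72 h, with 3 above the control, 5 below and 2 equal. Apoe, which macrophages also make, differed by 0.98, Birc7, an inhibitor of apoptosis, by -0.39, Cdk2 by 0.28 and Bcl2 by -0.27. The other Cdk2 probe set was at 0.00, and the 4 other Bcl2 probe sets ranged from -0.35 to 0.03.

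Lysosome genes have products that share sorting routes with those of melanosomes. At 24 h 6 of 15 kept genes were above the control, 8 below it and 1 equal, with a median of -0.02. At 72 h 12 of the 15 were above it and 3 below, with a median of 0.52, where 6330 of the 13522 kept genes were above it and their median was 0.00. Lamp2, a lysosome membrane protein, was 2-fold higher, at 1.20, and its further probe sets gave 0.40 to 1.08. Hexa, Psap and Ctsa, which act in the lysosome lumen, differed by 0.95, 0.93 and 0.84, with the other Ctsa probe set at 0.00. The macrophage list had a median of 0.86 on the same array, and its part in the lysosome values was not tested.

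**Figure D4:**
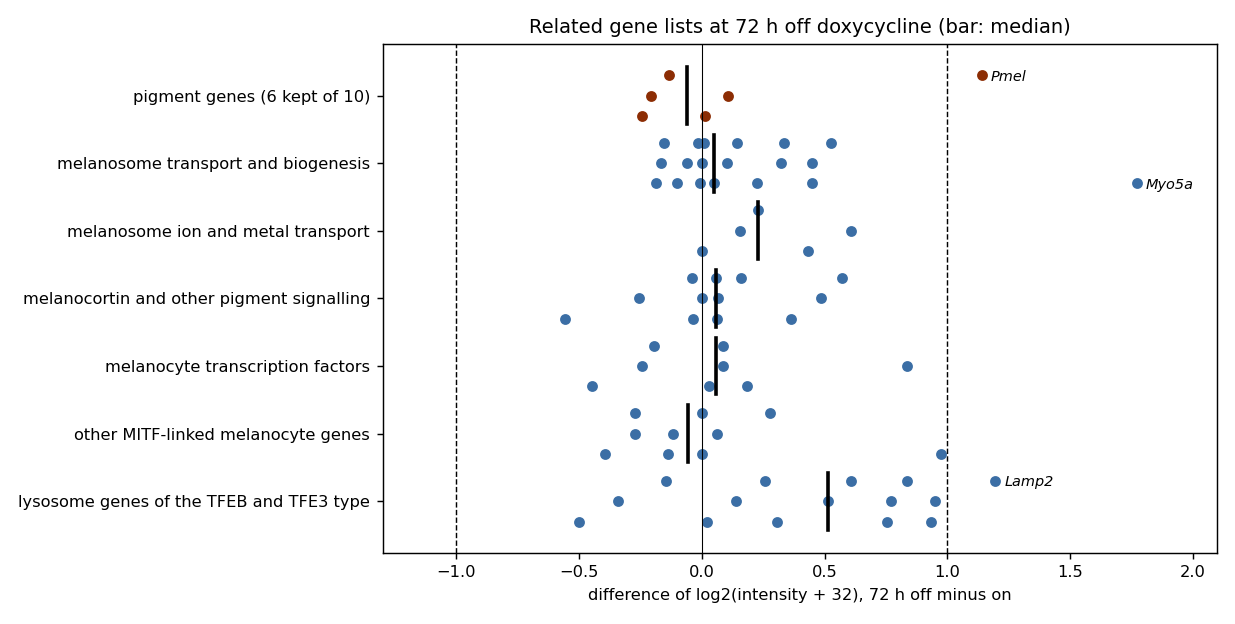
Differences of log2(intensity + 32), 72 h off minus on (horizontal), for the kept pigment genes and 6 related lists (vertical). Each point is 1 gene, vertical offsets only separate points, the bar is the median and the dashed lines mark a 2-fold difference; Myo5a (1.77), Lamp2 (1.20) and Pmel (1.14) are the genes past it.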

How the data were processed

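RNA of 4 tumours was measured on an Affymetrix mouse array; per the labels' protocols, about 50 mg of trimmed tumour was extracted with Trizol and 10 ug of total RNA was labelled. The deposited values are linear intensities, 1 for each probe set on each array. MAS5 and RMA are named, without version or role, per the submitters' processing notes, so their part in the deposited intensities, and any scaling between arrays, is unknown. Of 45037 probe sets, 34945 had 1 symbol in the platform annotation and were used, 932 had several and 9160 were unnamed here. Differences are of log2(intensity + 32) from the deposited values, with no further normalization; the pseudocount understates changes of dim genes. There was no test, as each group has 1 array. The code for counting 2-fold differences was tested on simulated data. The changes planted there were in genes brighter than any member, so the test does not cover dim genes.

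Named were all members, up to 4 kept genes of each list with the greatest absolute difference at 72 h, Mitf and Sox10, and the 5 nearest profiles of the 2 kept members with the widest range. Members and lists were chosen with earlier results of these data known. Alternatives were other pseudocounts, normalizations, probe set rules and level filters. No protein sequences were used here. Python 3.11.15, pandas 2.3.3 and NumPy 2.4.6 were used.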

Additional observations from a re-analysis of the deposited data

How the results depend on the processing

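The 9 alternatives left the members' 2-fold counts as given, except that a pseudocount 4 times as high left 0 members 2-fold higher at 72 h off minus on and 0 at 72 h minus 24 h. For Pmel these differences ranged over the alternatives from 0.70 to 1.45 and from 0.88 to 2.00. Counts of kept genes 2-fold different either way moved more. At 24, 48 and 72 h against the control and at 72 h against 24 h they were 45, 243, 529 and 516, and with the 4 times higher pseudocount they were 13, 97, 286 and 267. A pseudocount of 8 gave 71 at 24 h, no pseudocount gave 97, 398 and 800 at the 3 times, and the mean over probe sets gave 29, 135 and 332. A larger pseudocount shrinks differences of dim genes by construction; the cause of the change with averaged probe sets was not tested. Without a pseudocount Dct was at -0.43 and Tyrp1 at -0.31 at 72 h. The signs of Dct, Slc45a2 and Mc1r against the control were the same in all 9 alternatives, which share that array. Most of these could not have changed them. Another pseudocount keeps the order of the values, and the level filters and the dropping of some probe sets left these values as they were. Averaging over probe sets could not act on Dct, which has 1 probe set. Median centring moves all genes alike, here by 0.003, -0.012 and -0.008 at 24, 48 and 72 h, too little to change these signs. Quantile normalization could change a sign and did not. Differences near 0 (Tyr at 24 h, Gpr143 at 72 h, and Tyr, Oca2 and Mc1r between 72 and 24 h) changed sign in 1 to 3 alternatives. No paired analysis was possible because each group has 1 array. Dim signal, with no detection call, limits what can be said of Tyr, Tyrp1, Mlana and Oca2. The same limit holds for Dct, Gpr143 and Gpnmb, which passed the filter with means of only 28.3, 39.1 and 48.6.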
